A study of Mus musculus with 9 samples.

Results

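Wdfy4 and 7 relatives of it were followed in mouse natural killer (NK) cells that carried wild-type Tyk2, no functional Tyk2 or a kinase-inactive form of it. The genes were taken by symbol from the platform annotation: the 6 BEACH domain genes Wdfy4, Wdfy3, Lyst, Lrba, Nbeal1 and Nbeal2, and Wdfy1 and Wdfy2, which share the WDFY name without that domain. They are 8 of the 12579 genes tested, and each was read by a single probe set with 1 symbol, so Wdfy4 has no second probe set to set beside the first. Wdfy4 was chosen by its log2 values on the Tyk2-/- and WT arrays, where it was high in Tyk2-/-, so its values there are given as a description without a test. The 7 others were chosen for their domains and names.

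The groups were WT, Tyk2-/- (deficient in the Janus kinase TYK2) and Tyk2K923E (TYK2 present but kinase-inactive), all female C57BL/6N mice, whose age was not given. Splenic NK cells of 3 to 4 mice per genotype were pooled in each of 3 independent experiments, enriched with DX5 beads (an antibody against CD49b, the product of Itga2) and cultured with 5000 U/ml of recombinant human IL-2 over 7 days. Each pool gave 1 array, 9 in all, so the SDs below are over 3 pools and not over single mice. How the Tyk2-/- allele was made was not given in the sources used here.

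BEACH domain proteins are very large scaffolds, named after the beige mouse and Chediak-Higashi syndrome, that steer the traffic, fusion and fission of endosomes, lysosomes and secretory granules. In NK cells the best known is LYST: without it, lytic granules swell and are released poorly. WDFY4 is known from type 1 conventional dendritic cells, where it is needed to present cell-associated antigen on MHC class I. TYK2 is a Janus kinase bound to cytokine receptors, among them those of interferon alpha and IL-12, and acts through STAT factors.

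The array medians lay between 5.42 and 5.48 log2 units. The 3 arrays of experiment 1 stood apart from the other 6 on the first principal component, which held 61.0% of the variance. All 12 NK cell markers examined, among them Ncr1, Klrb1c, Eomes and Prf1, reached the median of each of the 9 arrays. Of these, Itga2 differed from WT by -0.71 in Tyk2K923E (limma adjusted p = 0.155, or 0.0375 with pairing) and by -0.39 in Tyk2-/- (adjusted p = 1, or 0.254 with pairing), and its part in the results below was not tested. Of the 12, 5 were higher and 7 lower than WT in each mutant, where 51.9% (Tyk2-/-) and 50.8% (Tyk2K923E) of all genes were higher. In Tyk2-/-, 2 of 12 had an unadjusted limma p under 0.05 unpaired and 5 paired, beside 2.08% and 9.08% of all genes. In Tyk2K923E these were 4 and 5, beside 4.21% and 10.0%. The Tyk2 probe set read 9.55, 8.63 and 8.85 in Tyk2-/-, against 8.62 ± 0.06 (SD, n = 3) in WT and 8.53 ± 0.10 in Tyk2K923E, so it was not lower in the arrays labelled Tyk2-/-. The position of its probes relative to the deleted part was not given, so this reading checks no label, and the genotypes below are those of the labels. In bulk RNA, a change in the number of cells of a type and a change in RNA per cell cannot be told apart.

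Wdfy4 (probe set 17304906, chromosome 14) was high in Tyk2-/- cells alone. The RefSeq window upstream of the start site that the promoter table gives for it (GRCm38.p6, chr14:33185067-33185316, minus strand) is shown beside that of Lyst (GRCm38.p6, chr13:13590159-13590408, plus strand), because they differ in a feature on which the choice of genes did not rest. Both are written 5′ to 3′ with each CpG dinucleotide in capitals.
Wdfy4: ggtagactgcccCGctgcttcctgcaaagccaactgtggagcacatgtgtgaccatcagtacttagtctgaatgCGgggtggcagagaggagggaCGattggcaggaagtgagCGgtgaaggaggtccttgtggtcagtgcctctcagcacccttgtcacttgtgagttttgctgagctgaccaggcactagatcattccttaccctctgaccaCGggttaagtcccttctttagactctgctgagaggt
Lyst: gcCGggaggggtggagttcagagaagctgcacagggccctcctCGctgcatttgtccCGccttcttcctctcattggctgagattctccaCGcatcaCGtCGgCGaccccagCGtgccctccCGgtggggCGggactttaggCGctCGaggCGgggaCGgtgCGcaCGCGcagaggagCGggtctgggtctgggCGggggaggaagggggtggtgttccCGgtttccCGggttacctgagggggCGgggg

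Windows of 250 bases before the start were found for 6 of the 8 genes. Wdfy4 had 5 CpG dinucleotides, near the median of 6 over 32851 such windows. Lyst had 22, Nbeal1 24, Wdfy2 20, Lrba 19 and Nbeal2 14, each more than in at least 70.6% of all windows. The GC content was 54.4% for Wdfy4 and between 62.4% (Nbeal2) and 73.2% (Nbeal1) for the others. The STAT dimer element GAS, searched as TTCNNNGAA on both strands, was matched in the Lyst window alone, as TTCAGAGAA at base 17 of the sequence above. Of all windows, 7.02% hold such a match. The interferon-stimulated response element, searched as GAAA, any 2 bases and GAAA again on both strands, was matched in none of the 6 windows and in 2.98% of all. A match is a run of letters and not a measured site, and these windows hold only part of what can regulate a gene.

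In WT, Wdfy4 read 5.77, 6.12 and 5.70 log2 units in experiments 1, 2 and 3. In Tyk2K923E it read 5.66, 6.14 and 5.77. In Tyk2-/- it read 8.23, 8.43 and 8.21. The WT and Tyk2K923E arrays overlapped throughout, and every Tyk2-/- array lay above all 6 of them. In each genotype the reading of experiment 2 was the highest.

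The WT mean of Wdfy4 was 5.86 ± 0.22 (SD, n = 3), the Tyk2K923E mean 5.86 ± 0.25 and the Tyk2-/- mean 8.29 ± 0.12. The log2 difference between Tyk2-/- and WT was 2.43 (SE 0.15), a 5.37-fold higher level, and it was 2.46, 2.31 and 2.51 within experiments 1, 2 and 3. Against Tyk2K923E the difference was 2.43 (5.40-fold), with 2.57, 2.29 and 2.43 within the experiments. These differences share the Tyk2-/- arrays and are not independent of each other. On the order of levels, Tyk2-/- stood first, and WT and Tyk2K923E did not differ beyond their spread.

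**Figure D1:**
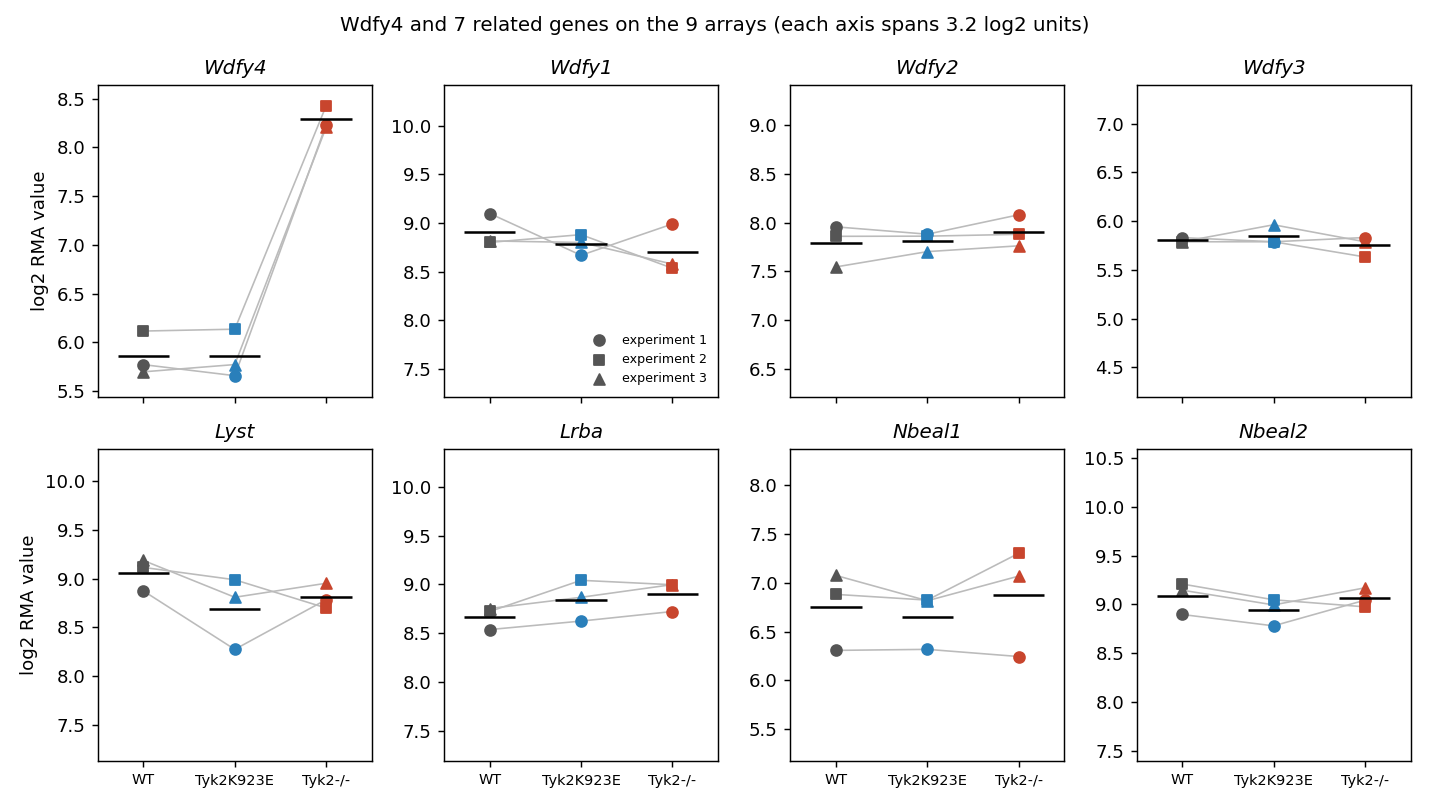
Log2 RMA value (y axis, the same span in each panel) of the 8 genes on each of the 9 arrays by genotype. Marker shapes are the 3 experiments, grey lines join arrays of 1 experiment and black bars are means of 3 arrays. Wdfy4 lies at 8.21 to 8.43 in Tyk2-/- and at 5.66 to 6.14 elsewhere, whereas the genotypes of each other gene overlap.

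The Wdfy4 readings of WT and Tyk2K923E were above those of 54.4% to 61.5% of the probe sets on the same array, and those of Tyk2-/- above 82.9% to 84.6%. Wdfy4 reached the array median on all 9 arrays, so its place among the genes tested did not depend on the Tyk2-/- arrays. No background reading was among the values used here. The low readings may include background, and the 5.37-fold difference may then be too small.

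Tyk2K923E against WT is the comparison that did not enter the choice of Wdfy4, although it shares the WT arrays with it. There the log2 difference of Wdfy4 was -0.01 (SE 0.15, limma adjusted p = 1, 95% interval -0.35 to 0.34), higher in 2 of 3 experiments and lower in the other. With the experiments paired, the interval was -0.17 to 0.16 (limma adjusted p = 0.986). In this comparison 0.00795% of all genes passed the threshold of 0.05 unpaired and 0.0874% with pairing. A change of the size seen in Tyk2-/- lies outside both intervals.

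Of the 7 other genes, 0 passed in Tyk2-/- against WT, in limma without or with the experiments paired. Over all genes 0.0318% passed unpaired (4 genes) and 0.0874% paired (11 genes). At an unadjusted p under 0.05 there were 0 of 7 unpaired and 1 of 7 paired (Lrba), beside 2.08% and 9.08% of all genes. Their log2 differences ran from -0.25 (Lyst) to 0.24 (Lrba), with 3 higher, 4 lower and a median of -0.02, where the median of all genes was 0.0045. The groups overlapped for all 7, while 5.33% of all genes had groups that did not.

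Within single experiments, too, the Wdfy4 difference stood well above the relatives. It was 2.46 in experiment 1, where the 7 others lay between -0.11 (Wdfy1) and 0.19 (Lrba). It was 2.31 in experiment 2, where they lay between -0.42 (Lyst) and 0.42 (Nbeal1). It was 2.51 in experiment 3, where they lay between -0.24 (Wdfy1) and 0.25 (Lrba). The mean over the 7 others was 0.03, -0.05 and 0.00 in the 3 experiments. Since Wdfy4 was picked for this difference, the gap to its relatives is a description of these arrays.

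The 95% intervals of the unpaired fit for the 7 relatives in Tyk2-/- against WT reached from -0.65 (Lyst) to 0.80 (Nbeal1), and those of the paired fit from -0.54 (Lyst) to 0.39 (Lrba). A rise of the size of Wdfy4 lay outside the interval of every relative. Wdfy4 was chosen for that size, which only Ckap4 approached, so this is a description and not a test. Wdfy4 had the largest log2 difference of the 12579 genes in Tyk2-/- against WT. Next came Ckap4 (2.14), whose place among the genes tested did depend on the Tyk2-/- arrays, and, at a distance, Cfap300 (0.93).

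**Figure D2:**
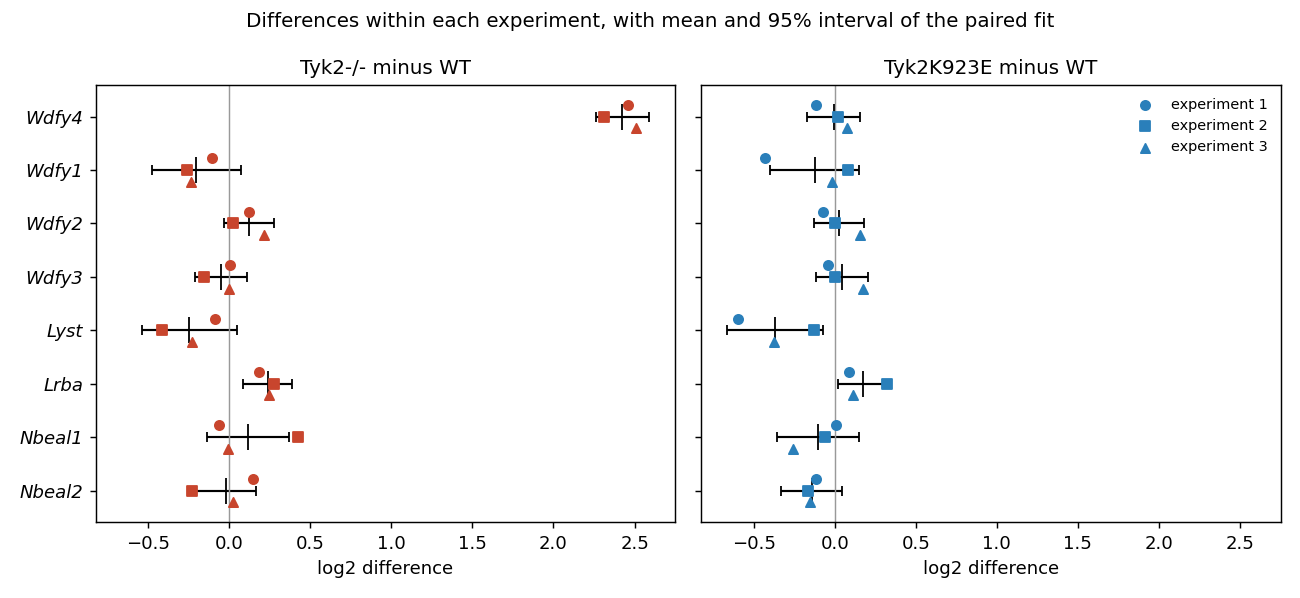
Log2 difference from WT (x axis) of the 8 genes (y axis) within experiments 1 to 3 (circle, square, triangle), for Tyk2-/- at the left and Tyk2K923E at the right. Black ticks and bars are the mean and the 95% interval of the paired fit. Wdfy4 in Tyk2-/- lies between 2.31 and 2.51, and all other points lie between -0.60 and 0.42.

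Among the WDFY relatives, Wdfy1 encodes a FYVE domain adaptor that brings TRIF to Toll-like receptors. It read 9.10, 8.80 and 8.82 in WT and 8.99, 8.54 and 8.58 in Tyk2-/-, lower in all 3 experiments. The difference was -0.20 (SE 0.14, limma adjusted p = 1, or 0.648 with pairing). Tyk2K923E read 8.67, 8.88 and 8.80, within the span of the other genotypes, at -0.12 from WT. A further probe set that carries Wdfy1 together with another gene was not used.

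Wdfy2 lies on chromosome 14 as Wdfy4 does and encodes an endosomal FYVE protein that binds AKT. Its values ran from 7.55 to 7.96 in WT, from 7.70 to 7.88 in Tyk2K923E and from 7.76 to 8.08 in Tyk2-/-, so the genotypes overlapped. The difference of Tyk2-/- from WT was 0.12 (SE 0.13, limma adjusted p = 1, or 0.637 with pairing), and that of Tyk2K923E was 0.03. Wdfy3, also called Alfy, encodes a scaffold for the autophagy of protein aggregates. It differed by -0.05 (SE 0.08) in Tyk2-/- and by 0.04 in Tyk2K923E. Its value was exactly 5.79 on 5 of the 9 arrays, as happens for 3.04% of the genes tested, so its SD in WT (0.02) says little about biological spread.

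Lyst is the gene of the beige mouse and controls the size of lytic granules. It read 8.87, 9.12 and 9.19 in WT, 8.28, 8.99 and 8.81 in Tyk2K923E and 8.79, 8.70 and 8.95 in Tyk2-/-. Each mutant array was below the WT array of its own experiment, but the groups overlapped. The difference was -0.37 in Tyk2K923E (SE 0.18, limma adjusted p = 1, or 0.373 with pairing) and -0.25 in Tyk2-/- (SE 0.18, adjusted p = 1, or 0.605 with pairing). Neither passed. In Tyk2K923E 10 of 10 T cell markers tested were also lower (0 passed, median -0.37), where 50.8% of all genes were higher. Of these 10, 3 had an unadjusted limma p under 0.05 unpaired and 5 paired, beside 4.21% and 10.0% of all genes. In Tyk2-/- 9 of 10 were lower (0 passed, median -0.10), where 51.9% of all genes were higher, and 0 had such a p in either fit. The part of these markers in the Lyst differences was not tested. These differences share their WT arrays.

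Lrba encodes the scaffold that keeps CTLA-4 from lysosomal breakdown. It read 8.54, 8.72 and 8.75 in WT, 8.722, 8.997 and 8.998 in Tyk2-/- and 8.62, 9.04 and 8.87 in Tyk2K923E. Both mutants were above WT in each experiment, by 0.24 in Tyk2-/- (SE 0.13, limma adjusted p = 1, or 0.377 with pairing) and by 0.17 in Tyk2K923E (SE 0.13, adjusted p = 1, or 0.419 with pairing). The paired 95% interval for Tyk2-/- was 0.08 to 0.39, the sole one of the 7 relatives in this comparison that did not include 0, and it is not adjusted for the number of genes. Of the 7 relatives, 4 moved the same way in all 3 experiments (Wdfy1, Wdfy2, Lyst and Lrba), beside 30.1% of all genes. In Tyk2K923E against WT these were 3 of 7 (Lyst, Lrba and Nbeal2), beside 30.9%, and in Tyk2-/- against Tyk2K923E 1 of 7 (Wdfy2), beside 28.5%.

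Nbeal1 and Nbeal2 encode neurobeachin-like proteins, of which NBEAL2 is needed to form platelet alpha granules. Nbeal1 read 6.31, 6.88 and 7.08 in WT, 6.32, 6.82 and 6.82 in Tyk2K923E and 6.24, 7.30 and 7.07 in Tyk2-/-. Its level varied more between experiments than between genotypes. Experiment 1 was lower than the mean of the other 2 by 0.71 log2 units, the widest such gap among the 8 genes. Its difference was 0.12 in Tyk2-/- (SE 0.30 unpaired and 0.11 paired). Nbeal2, on chromosome 9 as Tyk2 is, ran from 8.78 to 9.21 over all arrays and differed by -0.02 in Tyk2-/- (SE 0.11) and by -0.14 in Tyk2K923E (SE 0.11), where it was lower in 3 of 3 experiments without passing (limma adjusted p = 1, or 0.625 with pairing).

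In Tyk2K923E against WT, 0 of the 7 relatives passed in limma in either fit. Unadjusted, 0 of 7 had a p under 0.05 unpaired and 2 of 7 paired (Lyst and Lrba), beside 4.21% and 10.0% of all genes. The groups overlapped for all 7, while those of 7.23% of all genes did not. In Tyk2-/- against Tyk2K923E, 0 of 7 passed in either fit, where 0.0238% of all genes did in each, and 0 of 7 had an unadjusted p under 0.05 in either fit, beside 2.41% and 9.68% of all genes. The log2 differences there ran from -0.10 (Wdfy3) to 0.22 (Nbeal1), and the groups overlapped for all 7, while those of 5.51% of all genes did not.

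**Figure D3:**
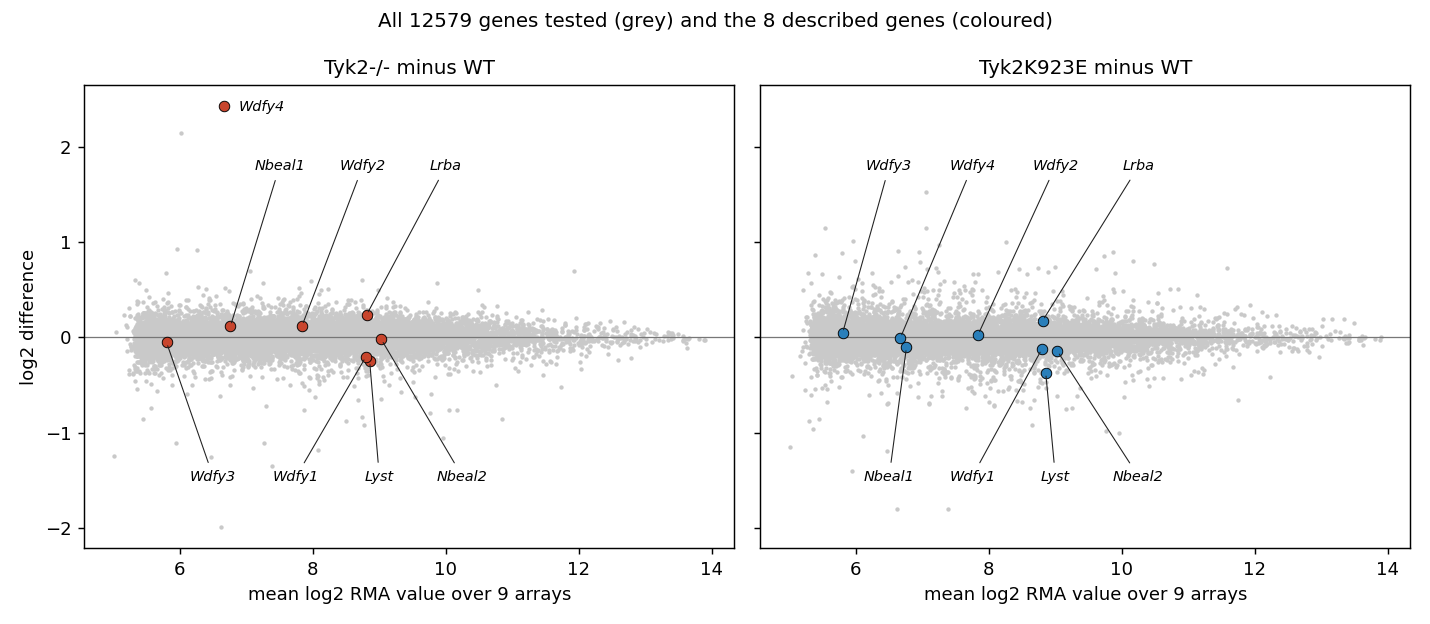
Log2 difference from WT (y axis) against the mean log2 RMA value over the 9 arrays (x axis) for the 12579 genes tested (grey), with the 8 described genes coloured and named. In Tyk2-/- (left) Wdfy4 lies at 2.43, above every other gene, and its 7 relatives lie between -0.25 and 0.24. In Tyk2K923E (right) all 8 lie between -0.37 and 0.17.

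The BEACH family has 3 further mouse genes that were measured. Nsmaf, which couples the TNF receptor to neutral sphingomyelinase, differed by -0.0032 in Tyk2-/- and by -0.01 in Tyk2K923E, with an SE of 0.06. Wdr81, an endosomal maturation factor, differed by -0.08 and -0.13 (SE 0.09). Nbea, the neuronal founder neurobeachin, read near the array medians and differed by -0.33 and 0.34 (SE 0.21). None of the 3 passed in limma against WT (adjusted p = 1 unpaired and between 0.664 and 0.993 with pairing), and none had an unadjusted p under 0.05 there.

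The genes beside Wdfy4 on chromosome 14 were taken from the RefSeq gene order, 10 protein-coding genes on each side, with the fall of Mapk8 already known. Of these 20, 19 were measured and 8 passed the filter on low values. Mapk8, which encodes the stress kinase JNK1, is the third gene from Wdfy4, with Lrrc18 (inside the Wdfy4 span) and Arhgap22 between them. It read 7.78, 7.54 and 7.53 in WT, 7.61, 7.77 and 7.62 in Tyk2K923E and 6.597, 6.591 and 6.342 in Tyk2-/-. Every Tyk2-/- array was below the other 6. Mapk8 therefore separated the same arrays as Wdfy4 did, in the other direction.

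The fall of Mapk8 in Tyk2-/- was 1.11 log2 units against WT (difference -1.11, SE 0.10, limma adjusted p = 0.0138, or 0.00336 with pairing) and 1.16 against Tyk2K923E (difference -1.16, adjusted p = 0.00962, or 0.00316 with pairing). In Tyk2K923E against WT it differed by 0.05 (adjusted p = 1, or 0.889 with pairing). Against WT its unpaired adjusted p rose to 0.0589, 0.0849 and 0.0634 without Tyk2-/- replicate 1, 2 or 3 and to 0.0859 and 0.055 without WT replicate 2 or 3, at differences of -1.15 to -1.02. Against Tyk2K923E it rose to 0.0514 and 0.0628 without Tyk2-/- replicate 1 or 2 and to 0.0892 and 0.0793 without Tyk2K923E replicate 2 or 3. Without experiment 1, 2 or 3 it was 0.127, 1 and 0.894 against WT and 0.0701, 1 and 1 against Tyk2K923E. With pairing it was 0.0676 without experiment 1 and 0.337 without experiment 3 against WT, and 0.39 without experiment 3 against Tyk2K923E.

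The other 7 neighbours tested did not pass in any comparison. In Tyk2-/- against WT they ran from -0.32 (Tmem273) to 0.14 (Ercc6), with the lowest limma adjusted p at 1 unpaired and 0.58 with pairing. Arhgap22, which lies between Wdfy4 and Mapk8, differed by -0.03 (SE 0.06), at readings of 5.48 to 5.60 near the array medians. Vstm4, next to Wdfy4 on the other side, differed by -0.25 (SE 0.15), at readings of 5.39 to 6.08. Gdf10 read 5.54 to 5.87, also near the medians. Of these 7 neighbours, Ercc6 read the highest (7.90 to 8.33), and no other rose above 6.72. Low readings may include background, which would make a difference too small. Lrrc18 was below the array median on all 9 arrays and was not tested (difference 0.16 in the fit without a filter). The 11 neighbours that failed the filter differed by -0.13 to 0.16.

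**Figure D4:**
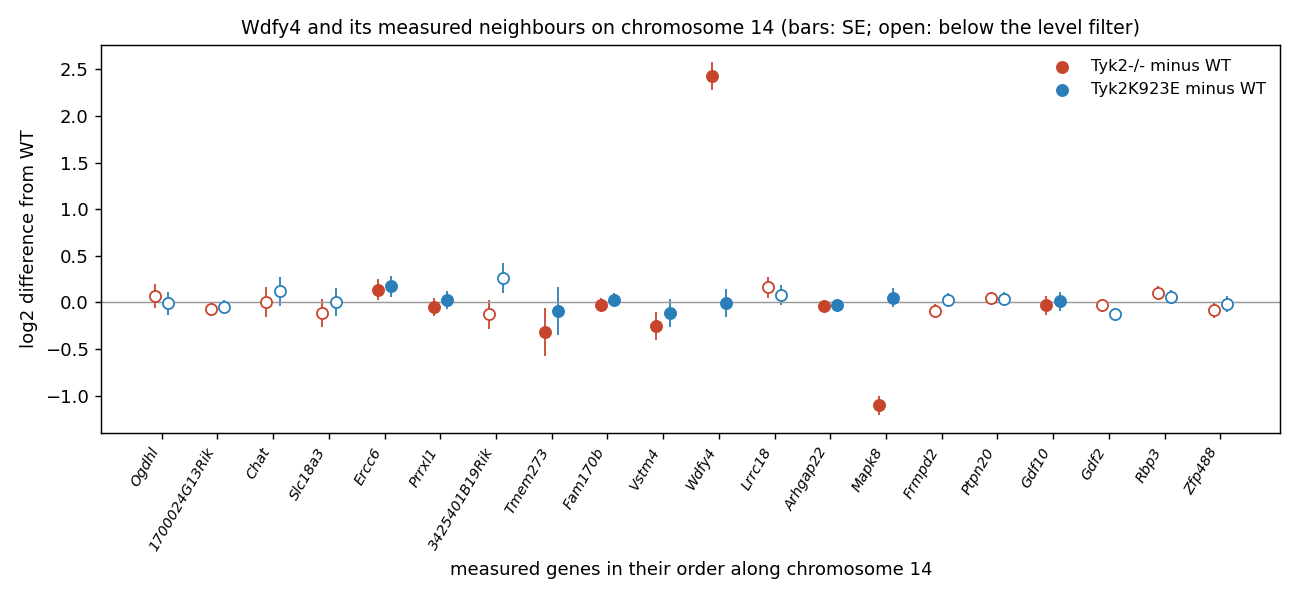
Log2 difference from WT (y axis) of Wdfy4 and its 19 measured neighbours in their order along chromosome 14 (x axis, equal spacing and not to distance), for Tyk2-/- (red) and Tyk2K923E (blue). Bars are SEs of the unpaired fit, and open symbols are genes below the filter on low values. In Tyk2-/- Wdfy4 lies at 2.43 and Mapk8 at -1.11, while the others lie between -0.32 and 0.16.

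The pattern most like that of Wdfy4 over the 9 arrays was that of Ckap4 on chromosome 10, a membrane protein of the endoplasmic reticulum. Likeness was the root mean square difference between the 9 values of each gene after centring on its own mean, and it was 0.32 log2 units for Ckap4. The next were Mapk11 (0.90), which encodes a p38 kinase, Plxnb2 (0.94), the cytokine gene Lta (0.96) and Rab4a (0.96), a GTPase of recycling endosomes. A gene with no variation at all would lie at 1.16, so that beyond Ckap4 the likeness by this measure was slight. The measure weighs the size of a difference as well as its direction. Plxnb2, for one, was higher in Tyk2-/- by 0.53 against WT and 0.50 against Tyk2K923E, with 0.03 between those 2. Ckap4 read 5.37, 5.05 and 5.34 in WT, 5.36, 5.35 and 5.54 in Tyk2K923E and 7.26, 7.38 and 7.54 in Tyk2-/-. Its 3 Tyk2-/- arrays, like those of Wdfy4, lay above all others. Ckap4 was below the median of every WT array and of the Tyk2K923E arrays of experiments 1 and 2. Unlike Wdfy4, it was therefore among the genes tested only through its Tyk2-/- arrays, and its likeness is a description.

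Genes of the routes on which BEACH and FYVE proteins act were examined through 7 lists. Leaving out the 8 genes themselves, 125 distinct members were tested, and 0 passed in limma in any of the 3 comparisons, unpaired or paired. Of all genes 0.00795% to 0.0874% passed in these fits, so a count of 0 says little about these routes. In Tyk2-/- against WT, 3.2% of them had an unadjusted p under 0.05 unpaired and 11.2% with pairing, beside 2.08% and 9.08% of all genes. Their median log2 difference there was -0.01. In Tyk2K923E against WT the unadjusted shares were 3.2% and 12%, beside 4.21% and 10.0% of all genes. In Tyk2-/- against Tyk2K923E they were 3.2% and 14.4%, beside 2.41% and 9.68%.

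FYVE domain proteins, which bind phosphatidylinositol 3-phosphate on endosomes, were higher for 10 and lower for 16 of 26 tested in Tyk2-/-, with a median of -0.02 and a range from -0.23 (Rufy2) to 0.24 (Pikfyve). This list holds Wdfy1, Wdfy2 and Wdfy3. Regulators of this lipid and of endosome traffic had a median of -0.01 over 25 genes, with Rab4a at 0.42 (SE 0.12, adjusted p = 1 in limma, or 0.326 with pairing). Autophagy genes had a median of -0.01 over 24, with Map1lc3b, which encodes the LC3B protein of autophagosome membranes, at -0.33 (SE 0.18) and the cargo receptor Sqstm1 at -0.27 (SE 0.20).

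Genes of lysosome-related granule exocytosis, the route of LYST, were split evenly at 12 higher and 12 lower of 24 in Tyk2-/-, with a median of -0.0018. Sytl2 differed by -0.15 (SE 0.07, limma adjusted p = 0.539 with pairing). The granule tetraspanin Cd63 differed by 0.35 (SE 0.19, limma adjusted p = 1, or 0.344 with pairing). Antigen cross-presentation genes, the route of WDFY4 in dendritic cells, were lower for 14 of 20 in Tyk2-/- (median -0.04) and for 16 of 20 in Tyk2K923E (median -0.14), whereas 51.9% and 50.8% of all genes were higher. In Tyk2-/-, 1 of 20 had an unadjusted limma p under 0.05 in either fit, beside 2.08% unpaired and 9.08% paired of all genes. In Tyk2K923E these were 3 of 20 unpaired and 9 of 20 paired, beside 4.21% and 10.0% of all genes, and 0 passed. H2-K1, an MHC class I heavy chain, differed by -0.27 and -0.31 and the peptide transporter Tap1 by -0.20 and -0.35, and none of these passed in limma (paired adjusted p between 0.148 and 0.644). In Tyk2-/- against Tyk2K923E, 15 of 20 were higher and 5 lower (median 0.10), beside 51.1% of all genes higher, and 0 passed. Of 7 single partners tested, 4 were higher and 3 lower in Tyk2-/-, and 0 passed. Prkcz, listed for WDFY2, differed by -0.31 (SE 0.10, limma adjusted p = 0.254 with pairing). Ticam1, listed for WDFY1, differed by -0.21 (SE 0.22, limma adjusted p = 0.377 with pairing). Ctla4, the cargo of LRBA, differed by -0.47 in Tyk2-/- (SE 0.58, limma adjusted p = 1, or 0.0679 with pairing). Within experiments 1, 2 and 3 it differed by -0.57, -0.36 and -0.49 (paired SE 0.07), and 30.1% of all genes kept 1 sign there. Against Tyk2K923E, with the same Tyk2-/- arrays, it differed by -0.54 (limma adjusted p = 0.102 with pairing). Tyk2K923E differed from WT by 0.07.

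Wdfy4 is known to be expressed by dendritic cells and B cells, so markers of both were read in the same arrays. Of 11 measured B cell markers, 10 lay below the array median on all 9 arrays (Ms4a1, Cd79a and Pax5 among them), and their summed linear level was 299 to 328 in WT, 301 to 312 in Tyk2K923E and 306 to 319 in Tyk2-/-. Of 9 measured markers of type 1 conventional dendritic cells, Xcr1, Cadm1, Tlr3 and Cd24a lay below the array median on all 9 arrays. Batf3 and Itgae each reached it on 1 array and Gcsam on 8. Irf8 and Naaa, which were high on all 9, carried the sum, which was 2727 to 3309 in WT, 3308 to 3502 in Tyk2K923E and 3004 to 3430 in Tyk2-/-. Of 8 measured general dendritic cell markers, Itgax, H2-Aa, H2-Ab1, Ccr7, Cd209a and Dpp4 reached the median on all 9 arrays, Zbtb46 on 8 and Flt3 on none. Itgax, which encodes the integrin CD11c, differed from WT by -0.88 in Tyk2-/- (SE 0.17, limma adjusted p = 0.871, or 0.222 with pairing). In Tyk2K923E it differed by -0.68 (adjusted p = 0.717, or 0.203 with pairing). Its groups did not overlap in either, as for 5.33% and 7.23% of all genes. Of 7 tested on that list, 3 were higher and 4 lower in Tyk2-/- (median -0.07), and 1 and 6 in Tyk2K923E (median -0.03). Of all genes, 51.9% and 50.8% were higher, and 0 of the 7 passed. The summed level of that list was 2729 to 3778 in WT, 2243 to 3483 in Tyk2K923E and 2551 to 2870 in Tyk2-/-. Of 6 plasmacytoid dendritic cell markers, Siglech, Ccr9 and Spib were below the median on all 9 arrays and Bst2, Tcf4 and Cd300c reached it on all 9. Bst2 and Tcf4 were the brightest of these and carried most of the sums of 1678 to 1794, 1598 to 1874 and 1512 to 1805.

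In the 3 dendritic cell lists, a few bright genes set the sums, which can hide a change in the low markers, and the part of dendritic and B cells in the Wdfy4 reading was not tested. Of the other cell types examined, 10 or 11 of 11 measured T cell markers reached the median on every array (Cd4 on 2 of the 9), with sums of 6699 to 9757 in WT, 5712 to 7111 in Tyk2K923E and 6874 to 9678 in Tyk2-/-. For monocytes and macrophages, 4 to 6 of 9 measured markers reached it (Csf1r on 2 of the 9 arrays, Lyz2 on 1), and the sums were 4255 to 7007, 2733 to 4525 and 3030 to 4928. Ly6c2 (10.95 to 12.64) was the brightest of these markers and carried most of the sums. Of 5 tested, 4 were lower than WT and 1 higher (Cd14) in each mutant, and 0 passed. Of all genes, 51.9% were higher in Tyk2-/- and 50.8% in Tyk2K923E. For neutrophils, 4 of 6 were below the median on all 9 arrays, and the sums were 163 to 187, 152 to 171 and 148 to 179. Whether NK cells or other cells gave these readings, and their part in those of the 8 genes, was not tested.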

How the data were processed

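RNA of 9 NK cell pools was hybridised to Affymetrix arrays. Per the submitters' processing notes, the authors normalised the arrays with RMA in Partek 6.6. The deposited values are on a log2 scale (1.10 to 14.1) and were used as given for 41345 probe sets. The genome build was not given in the sources used here.

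Of the probe sets, 23521 carried 1 symbol in the platform annotation, 1814 several and 16010 were not listed there. Probe sets at or above the array median on 3 or more of the 9 arrays were kept, and the brightest stood for its gene, which left 12579 genes. RefSeq tables (GRCm38.p6) gave gene order, chromosomes (23328 Entrez IDs matched) and promoter windows.

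Genotypes were compared with limma 3.58.1 in R 4.3.3 (lmFit and eBayes on all 9 arrays) with Benjamini-Hochberg adjustment over all genes and a threshold of 0.05. The same number in the labels marks the same independent experiment. Deviations from the genotype mean correlated at 0.383 to 0.787 between arrays of the same experiment and different genotypes (9 pairs) and at -0.71 to 0.559 otherwise, so the fit with experiment as a block is given beside the unpaired one. With 3 arrays per group the number of arrays limits the precision. The fits were tested on simulated data.

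Named were the 8 genes, the neighbours of Wdfy4, the 5 genes most like it, and from each of 7 lists the genes past the threshold or up to 3 with the smallest p, beside the ends of a list's range. The genes, lists and tests were chosen with earlier results of these data known. Alternatives were the experiment block, 2 genotypes alone, other filters, scalings and variance models, the mean over probe sets, and leaving out arrays or experiments. Paired versions of these were added after the data were seen. Figures were drawn with matplotlib 3.10.9.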

Additional observations from a re-analysis of the deposited data

Results flagged for a closer look

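The log2 difference of Wdfy4 between Tyk2-/- and Tyk2K923E was 2.43, so the difference of Tyk2-/- from WT and that of Tyk2K923E from WT were unequal, at 2.43 and -0.01. It held in 3 of 3 experiments (2.57, 2.29 and 2.43). Wdfy4 was chosen on the Tyk2-/- arrays, so this is a description of them. None of the 7 other genes stood out in this way, and groups of 3 arrays were too small to look for single arrays that stand apart.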

How the results depend on the processing

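The Wdfy4 difference of Tyk2-/- from WT stayed between 2.42 and 2.43 under the other filters, scalings, variance models and blocks, and between 2.34 and 2.55 when arrays or experiments were left out. Against Tyk2K923E it was 2.43 to 2.45 and 2.33 to 2.57. No other probe set could stand in for Wdfy4. For the 7 relatives, 0 of 519 values under the alternatives passed in limma, and the lowest adjusted p was 0.25. In the main unpaired and paired fits 0.00795% to 0.0874% of all genes passed, and some fits with arrays left out passed 0. The alternatives also share arrays, so this count says little about the relatives. The difference of Nbeal1 in Tyk2-/- ran from -0.11 to 0.43 over the arrays and experiments left out, and that of Nbeal2 from -0.11 to 0.09.

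The number of genes past the threshold over the whole table depended on the fit. In Tyk2-/- against WT it was 4 unpaired, 11 with experiment as a replicate block, 8 with a random block and 2 with these genotypes alone. With the block it was 11 after quantile normalisation, 19 with the 70th percentile filter and 22 with an intensity trend. Leaving out arrays or experiments gave 0 to 4, with 2 each without Tyk2-/- replicate 1, 2 or 3 or WT replicate 2. In Tyk2K923E against WT it was 1 unpaired, 11 with the replicate block, 9 with a random block and 0 with these genotypes alone, and, with the block, 17, 29 and 41 in the same order. Leaving out arrays or experiments gave 0 to 6, with 2 without WT or Tyk2K923E replicate 1 and 0 without replicate 2 of either. In Tyk2-/- against Tyk2K923E it was 3 unpaired and with the block, and 0 to 5 with arrays or experiments left out. With these genotypes alone, the adjusted p of Mapk8 was 0.134 against WT and 0.07 against Tyk2K923E. The cause of these shifts was not tested. No background reading was among the values used here, so how far the low readings of Wdfy4 in WT hold background is unknown.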

Other observations

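Nbea, the neurobeachin gene, read 5.24 ± 0.20 (SD, n = 3) in Tyk2-/- and 5.91 ± 0.36 in Tyk2K923E, and the arrays of these genotypes did not overlap, as for 5.51% of all genes. The log2 difference was -0.67 (SE 0.21) and did not pass (limma adjusted p = 1, or 0.452 with pairing). Both levels lie near the array medians. The endosomal gene Rab4a read 5.84 ± 0.07 in Tyk2-/-, 5.42 ± 0.22 in WT and 5.32 ± 0.15 in Tyk2K923E. It was higher in Tyk2-/- in 3 of 3 experiments against either genotype and did not pass (limma adjusted p = 1 unpaired, and 0.326 and 0.386 with pairing). Of all genes, 30.1% moved 1 way in 3 of 3 experiments against WT and 28.5% against Tyk2K923E. Rab4a is among the 5 genes picked as most like Wdfy4, so its direction is a description. Its WT and Tyk2K923E readings (5.17 to 5.56) lay near the array medians.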
